A study of Homo sapiens with 4 samples.

Results

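The transcripts described here are those of 10 genes of the circadian clock, taken by symbol from the 60617 genes of the deposited count table: PER1, PER2, PER3, CRY1, CRY2, BHLHE40, BHLHE41, NR1D1, NR1D2 and DBP. All 10 had a matching Ensembl ID, and all 10 passed the filter on low counts, among 17309 genes tested. Messenger RNA was sequenced from A673, a human Ewing sarcoma cell line that carries the EWSR1-FLI1 fusion and lacks functional p53. One group of 2 libraries came from cells given DMSO, the solvent, and the other group of 2 from cells given CBL0137 at 1 µM, each for 24 h in medium with fetal bovine serum. CBL0137 is a curaxin, a small molecule that binds DNA and traps the histone chaperone FACT on chromatin. The comparison asked which transcripts differ once FACT is targeted in this way.

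The circadian clock is a transcriptional feedback loop found in most cell types. CLOCK or its paralog NPAS2 pairs with BMAL1 on DNA elements called E-boxes and drives the PER, CRY, NR1D, BHLHE and DBP genes. PER and CRY proteins then repress that pair, BHLHE40 and BHLHE41 compete for the E-boxes, the REV-ERB receptors made by NR1D1 and NR1D2 repress BMAL1, and DBP activates genes through a further element, the D-box. In cell lines the clocks of single cells drift apart unless a stimulus aligns them, and bulk RNA averages over them. The sources used here give no step to align the cells. With 1 time point, a shift of phase and a change of mean level cannot be told apart, and neither can fewer cells with a transcript and less of it per cell.

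The elements through which the loop acts were looked for in the RefSeq promoter sequences of the members (build GRCh38.p14), which run from 250 bases before a gene's start to 50 after it. All 10 members matched, with 13 windows. The E-box CACGTG lay in the windows of PER1, BHLHE40, BHLHE41 and NR1D2, against 7.26% of all 35116 windows. Its variant CACGTT, searched on both strands as every motif here, lay in those of PER2, CRY1, CRY2 and NR1D1, against 5.34% of all windows. The D-box TTATGTAA lay in those of PER3 and NR1D2, against 0.886%, and the related TTACGTAA across the start of PER2, against 0.125%. The half-site AGGTCA, which ROR and REV-ERB receptors bind, lay in those of PER1 and CRY2, against 13.8%, and the cAMP response element TGACGTCA in none of the members, against 1.85%. DBP had none of these letters in its window. Sequence outside the windows was not searched, so a missing match does not show that a gene lacks the element.

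The stretches below show the motif, in capitals, with up to 35 bases on either side, for the single member that was called (PER3), for another member with the same D-box that was not called (NR1D2), and for the members with an E-box whose level passed the adjusted p but not the fold limit (PER1, BHLHE41). Each is written 5′ to 3′ along its gene, and each was placed in GRCh37 by an exact match.
PER3: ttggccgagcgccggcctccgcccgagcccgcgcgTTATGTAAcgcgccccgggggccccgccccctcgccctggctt
NR1D2: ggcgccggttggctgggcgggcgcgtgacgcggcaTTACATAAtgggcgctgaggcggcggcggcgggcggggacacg
PER1: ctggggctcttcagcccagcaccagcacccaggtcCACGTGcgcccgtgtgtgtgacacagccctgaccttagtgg
BHLHE41: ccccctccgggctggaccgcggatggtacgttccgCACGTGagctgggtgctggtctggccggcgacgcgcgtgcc

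The PER3 stretch is chr1:7844139-7844216 on the plus strand, in no annotated gene. The NR1D2 stretch is chr3:23987383-23987460 on the plus strand, where the D-box reads on the opposite strand, and it lies in no exon. The PER1 stretch is chr17:8055855-8055930 and the BHLHE41 stretch chr12:26277978-26278053, both on the minus strand and in no exon. A match is a description of letters. PER3 and NR1D2 share the D-box, yet only the level of PER3 passed both limits; whether their responses differ was not tested.

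Of the 10 members, 1 fell, 0 rose and 9 were not called, where a called gene passed 0.05 in edgeR's quasi-likelihood test (p adjusted by Benjamini-Hochberg over all genes tested) and differed by over 1.5 times. Over all genes tested, 9.61% were called, 6.88% higher and 2.73% lower in CBL0137, so the count of members is near the background. At an adjusted p under 0.05 and any fold, 2 members were lower and 1 higher, beside 36.5% of all genes tested. At an unadjusted p under 0.05, 2 were higher and 2 lower, beside 44.8% of all genes tested, and DESeq2 and limma-voom also called PER3 alone. The 2 libraries of one condition lay fully above or below those of the other for 4 members, beside 66.9% of all genes. The median log2 fold change of the members was 0.03, and that of all genes tested was 0.003. Summed over the members, expression was 299 and 302 CPM (the gene's counts relative to the library's scaled total) in DMSO replicates 1 and 2, and 289 and 305 CPM in CBL0137 replicates 1 and 2, so the conditions overlapped. CPM is given throughout after scaling by trimmed mean of M-values (TMM).

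**Figure D1:**
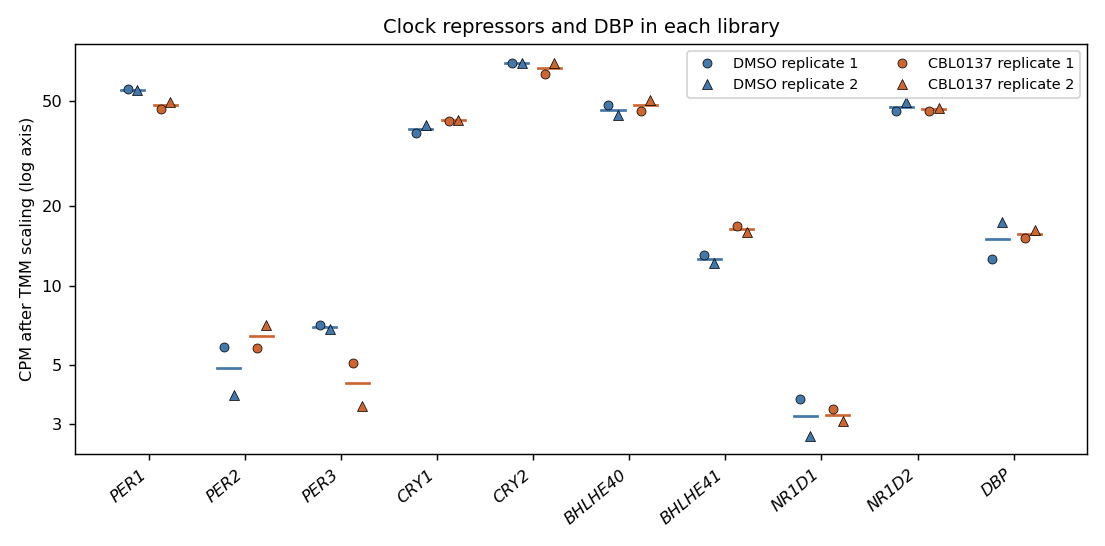
Expression of the 10 members in each of the 4 libraries, as CPM after TMM scaling on a log axis, with circles for replicate 1, triangles for replicate 2 and bars for the mean of each condition. PER3 and PER1 lie lower in both CBL0137 libraries, CRY1 and BHLHE41 lie higher, and the other 6 members overlap between conditions.

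The libraries held 20483714 to 23373554 reads assigned to genes. Replicates varied beyond counting error (chi-square over its degrees of freedom 2.07 for DMSO, 2.57 for CBL0137). Whether they were separate cultures is not stated in the labels, and the p-values therefore measure spread among libraries that may be technical. All 7 markers of Ewing sarcoma cells were tested and present, with a summed level of 5696 to 5739 CPM in DMSO and 5527 CPM in both CBL0137 libraries, and 0 were called. In DMSO, CCND1 averaged 2978 CPM and CD99 1590 CPM of that sum. At an edgeR adjusted p under 0.05, NR0B1 (log2 fold change 0.29) and NKX2-2 (0.20) were higher, and PRKCB (-0.23) and CCND1 (-0.07) lower, beside 36.5% of all genes tested. Of 5 epithelial markers 0 were tested, with sums of 0.711 to 0.875 CPM in DMSO and 0.475 to 0.476 in CBL0137 and GRHL2 at 0 counts. Of 5 blood markers 2 were tested and 0 called (1.75 to 1.78 and 1.76 to 1.99 CPM, with CD3E at 0 counts). Of the 3 endothelial markers matched, CDH5 rose from 4 and 3 counts to 19 and 17, with list sums of 0.178 to 0.219 CPM in DMSO and 0.777 to 0.952 in CBL0137. Of 4 fibroblast markers, 1 rose (DCN) and 0 fell, with sums of 5.29 to 5.38 and 6.48 to 7.73 CPM, and the part of these cell type markers in the results below was not tested.

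The 3 PERIOD genes encode proteins that carry CRY into the nucleus and help repress CLOCK and BMAL1, and 1 of them, PER3, fell. PER3 (ENSG00000049246, chromosome 1, 7844351 to 7905237, GRCh37) measured 7.09 and 6.88 CPM in DMSO replicates 1 and 2, and 5.10 and 3.50 CPM in CBL0137 replicates 1 and 2. Both treated libraries lay below both controls, and CBL0137 replicate 2 was the lowest. The mean fell from 6.99 ± 0.146 to 4.30 ± 1.13 CPM (SD, n = 2), or -0.71 ± 0.18 (SE) on the log2 scale (edgeR adjusted p = 0.00245). This is a level 0.611 times that of DMSO, with an approximate 95% interval of 0.475 to 0.787. The reads behind it were 162, 155, 107 and 81 in the same order of libraries.

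The call for PER3 rested on CBL0137 replicate 2: without that library the log2 fold change was -0.46 and the edgeR adjusted p 0.0629 (range over alternatives 1.7e-05 to 0.0629). DESeq2 called it at an adjusted p of 0.0496. The authors' deposited FPKM (fragments scaled by transcript length and library depth) of PER3 was 1.00 and 0.969 in DMSO and 0.583 and 0.483 in CBL0137, also without overlap. Exons of PER3 share 868 bases with those of UTS2 on the opposite strand, and the sources used here do not state whether the counting used strand. UTS2 had 148, 218, 168 and 172 reads, and measured -0.07 ± 0.16 on the log2 scale (edgeR adjusted p = 0.782). An antisense transcript, ENSG00000236266, shares 482 bases and had 5, 3, 0 and 1 reads.

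PER1 (ENSG00000179094, chromosome 17, 8043790 to 8059824) is a PERIOD gene that glucocorticoids and cAMP induce directly. Its level was 55.4 and 54.8 CPM in DMSO and 46.5 and 49.7 CPM in CBL0137, so the conditions did not overlap. The log2 fold change was -0.19 ± 0.06 (edgeR adjusted p = 0.0121), which is below the fold limit, with an interval of 0.802 to 0.952 times the DMSO level. The adjusted p was above 0.05 in DESeq2 (0.0943), without DMSO replicate 1 (0.059), without CBL0137 replicate 1 (0.102, at a log2 fold change of -0.15), in limma-trend on FPKM (0.405 and 0.407, with the opposite sign) and when edgeR was scaled by the upper quartile (0.0534) or by library size only (0.0815). The authors' deposited FPKM of PER1 went the other way, at 7.44 and 7.21 in DMSO and 7.50 and 8.59 in CBL0137, and the cause of this difference from the counts was not tested.

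PER2 (ENSG00000132326, chromosome 2, 239152685 to 239198743), whose product scaffolds the repressive complex, was the most weakly expressed of the members per unit length. It measured 5.86 and 3.86 CPM in DMSO and 5.81 and 7.08 CPM in CBL0137, and the conditions overlapped. Its log2 fold change of 0.41 ± 0.18 was not called (edgeR adjusted p = 0.086), and the interval ran from 1.02 to 1.73 times the DMSO level. The edgeR adjusted p was under 0.05 with upper-quartile (0.0366) or library-size (0.0305) scaling. There the log2 fold change was 0.46 and 0.47, below the fold limit. The value depended on single libraries of both conditions. Without DMSO replicate 1 PER2 was called higher (log2 fold change 0.74; adjusted p = 0.00468 in edgeR). Without DMSO replicate 2 it was 0.13 (edgeR adjusted p = 0.687), and without CBL0137 replicate 2 it was 0.25 (edgeR adjusted p = 0.39).

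A share of the reads of 2 paralogs within a library does not depend on how libraries are scaled, and these shares were added after the values were seen. PER3 made up 54.7% and 64.0% of the reads of PER3 and PER2 together in DMSO replicates 1 and 2. In CBL0137 replicates 1 and 2 it made up 46.7% and 33.1%. The exact Clopper-Pearson 95% intervals, which cover counting error only, were 48.9 to 60.5%, 57.7 to 70.1%, 40.1 to 53.4% and 27.2 to 39.3%. The intervals of replicate 1 of each condition included an even split and overlapped. Of the reads of PER3 and PER1, PER3 made up 11.3% and 11.2% in DMSO and 9.88% and 6.57% in CBL0137, where the interval of CBL0137 replicate 1 (8.17 to 11.8%) overlapped those of both controls. The shares are given as descriptions and were not tested between conditions.

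The CRYPTOCHROME genes encode the main repressors of CLOCK and BMAL1. CRY1 (ENSG00000008405, chromosome 12, 107385142 to 107487327) measured 37.9 and 40.4 CPM in DMSO and 41.9 and 42.5 CPM in CBL0137, with a log2 change of 0.11 ± 0.07 (edgeR adjusted p = 0.201). Its conditions did not overlap, yet the interval of 0.983 to 1.18 times the DMSO level includes no change. CRY2 (ENSG00000121671, chromosome 11, 45868669 to 45904799) measured 69.7 and 69.5 CPM in DMSO and 63.0 and 69.8 CPM in CBL0137. Those libraries overlapped, and the log2 fold change of -0.07 ± 0.06 was not called (edgeR adjusted p = 0.39; interval 0.881 to 1.04). For both genes the interval lies inside the fold limit in either direction. CRY1 made up 35.2% and 36.7% of the reads of CRY1 and CRY2 in DMSO, and 39.9% and 37.9% in CBL0137, with overlapping intervals for DMSO replicate 2 (34.8 to 38.7%) and CBL0137 replicate 2 (36.0 to 39.8%).

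BHLHE40 and BHLHE41, also known as DEC1 and DEC2, are E-box repressors that many stress signals, hypoxia among them, induce. BHLHE41 (ENSG00000123095, chromosome 12, 26272963 to 26277970) measured 13.0 and 12.2 CPM in DMSO and 16.9 and 15.9 CPM in CBL0137. Both treated libraries lay above both controls. The mean was 12.6 ± 0.586 CPM in DMSO and 16.4 ± 0.655 in CBL0137 (SD, n = 2), and the log2 fold change of 0.38 ± 0.10 had an edgeR adjusted p of 0.00565 but stayed below the fold limit (interval 1.12 to 1.50). At a fold limit of 1.2 in place of 1.5 it was called, while DESeq2 gave an adjusted p of 0.0947 and limma-trend on FPKM gave 0.0906 and 0.0909. With a library left out, its log2 fold change ran from 0.32 (without DMSO replicate 2) to 0.42 (without DMSO replicate 1). The authors' deposited FPKM of BHLHE41 was 2.32 and 2.38 in DMSO and 3.28 and 3.03 in CBL0137, in the same direction as the counts. SSPN, on the opposite strand and sharing 162 exon bases, had a log2 fold change of -0.11 ± 0.11.

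BHLHE40 (ENSG00000134107, chromosome 3, 5021122 to 5027008) measured 48.1 and 44.3 CPM in DMSO and 45.8 and 50.4 CPM in CBL0137, and these overlapped. Its log2 fold change was 0.06 ± 0.07 (edgeR adjusted p = 0.527; interval 0.948 to 1.14), and the sign turned without DMSO replicate 2 or CBL0137 replicate 2. The antisense transcript BHLHE40-AS1, which shares 451 exon bases with it, had 8 and 9 reads in DMSO and 26 and 17 in CBL0137. It was called higher (log2 fold change 1.37 ± 0.49, edgeR adjusted p = 0.0294) and was singled out after its values were seen. BHLHE41 made up 21.3% and 21.6% of the reads of both BHLHE genes in DMSO, and 26.9% and 24.0% in CBL0137. The interval of CBL0137 replicate 2 (21.9 to 26.2%) overlapped those of both controls (19.2 to 23.6% and 19.4 to 24.0%).

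NR1D1 and NR1D2 encode REV-ERB alpha and beta, heme-binding nuclear receptors that repress BMAL1 and many metabolic genes. NR1D2 (ENSG00000174738, chromosome 3, 23986777 to 24022108) measured 45.7 and 49.4 CPM in DMSO and 45.8 and 47.2 CPM in CBL0137, with a log2 change of -0.03 ± 0.06 (edgeR adjusted p = 0.729; interval 0.894 to 1.07). The treated libraries lay between the controls. NR1D1 (ENSG00000126368, chromosome 17, 38249046 to 38256842) measured 3.72 and 2.71 CPM in DMSO and 3.43 and 3.07 CPM in CBL0137, from only 61 to 85 reads per library. Its log2 fold change of 0.01 ± 0.22 was not called (edgeR adjusted p = 0.976), with a wide interval of 0.735 to 1.38 times the DMSO level. NR1D1 overlaps the 3′ end of the thyroid hormone receptor gene THRA on the opposite strand, with 473 shared exon bases, and THRA (967, 884, 827 and 953 reads) measured -0.02 ± 0.07 on the log2 scale. The signs of NR1D1 and NR1D2 both turned under some alternatives.

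DBP (ENSG00000105516, chromosome 19, 49133287 to 49140636), a D-box activator of the PAR bZIP family and one of the most strongly cycling clock outputs in liver, measured 12.6 and 17.5 CPM in DMSO and 15.1 and 16.2 CPM in CBL0137. The controls spanned the treated libraries. The log2 fold change was 0.06 ± 0.12 (edgeR adjusted p = 0.729; interval 0.880 to 1.24), and its sign turned without DMSO replicate 1 (-0.16). Exons of SPHK2 on the opposite strand share 661 bases with DBP, and SPHK2 measured -0.08 ± 0.10.

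**Figure D2:**
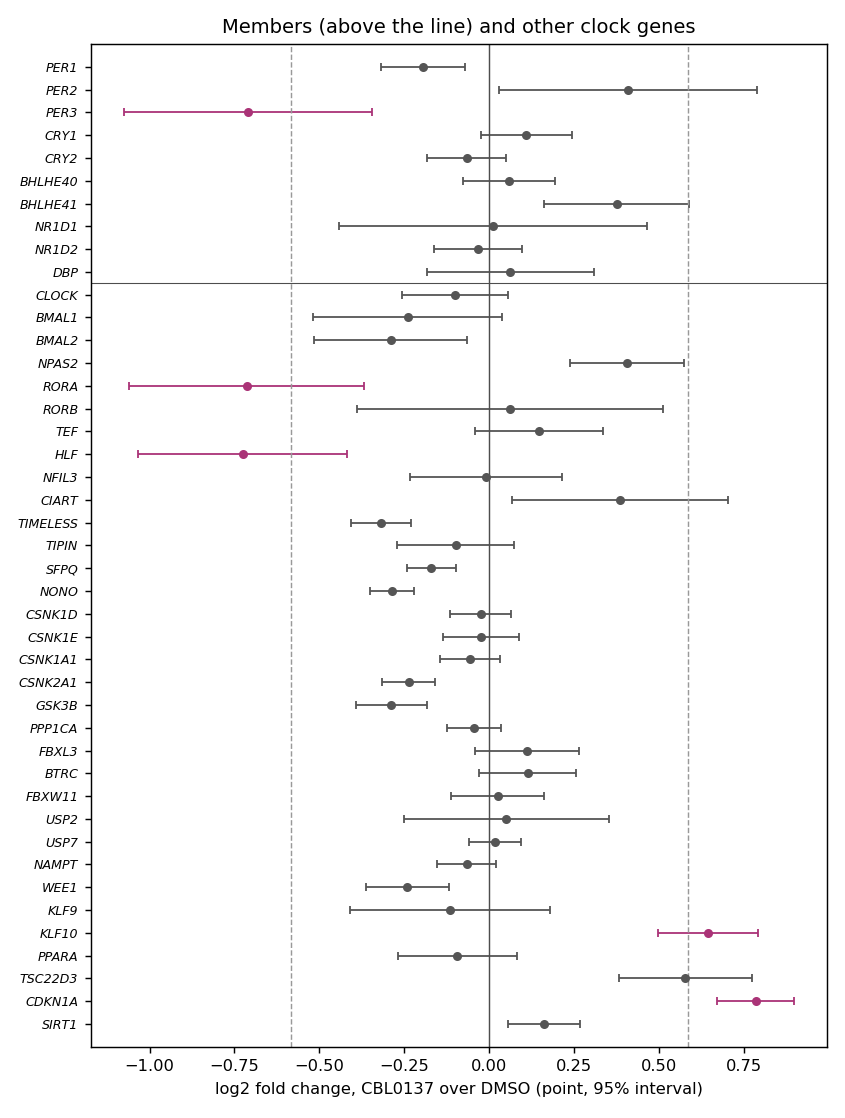
Log2 fold change of CBL0137 over DMSO for the 10 members (above the horizontal line) and the 33 tested other clock genes and outputs, with approximate 95% intervals, purple for called genes and dashed lines at the fold limit of 1.5. PER3, RORA and HLF lie below the lower limit, KLF10 and CDKN1A above the upper one, and 7 of the 10 members have intervals inside both limits.

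The intervals of 7 members, all but PER2, PER3 and BHLHE41, lay inside a 1.5-fold change in either direction. Per unit of transcript length, the authors' deposited FPKM in DMSO put the members in the order CRY2 (12.4 ± 0.401), BHLHE40 (10.6 ± 0.339), CRY1 (9.19 ± 1.15), PER1 (7.32 ± 0.161), DBP (6.31 ± 1.78), NR1D2 (4.21 ± 1.99), BHLHE41 (2.35 ± 0.0425), PER3 (0.985 ± 0.0235), NR1D1 (0.936 ± 0.116) and PER2 (0.520 ± 0.132), as means ± SD of 2 libraries. Within this order the libraries of PER1 and DBP, of DBP and NR1D2, and of PER3 and NR1D1 overlapped. Those of NR1D2 and BHLHE41 did not, although the lower NR1D2 value, 2.81, lay close to the higher BHLHE41 value, 2.38. CRY1 overlapped in no library with BHLHE40 or PER1, although its own 2 values, 8.38 and 10.0, were far apart. The FPKM of NR1D2 was 5.62 and 2.81 in the controls, although its reads numbered 1044 and 1113. With CPM per kilobase of annotated exon in place of FPKM, BHLHE40 came first, NR1D2 the third and DBP the seventh, while PER2 remained the last.

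The activators that drive the members were measured in the same way. Of the 4 genes, edgeR and DESeq2 called 0, where edgeR called 9.61% of all genes tested and DESeq2 called 923 of 14899. At an unadjusted p under 0.05 in edgeR, 1 was higher and 1 lower, beside 44.8% of all genes tested. CLOCK, a histone acetyltransferase and the usual partner of BMAL1, measured 29.1 and 29.8 CPM in DMSO and 28.2 and 26.8 CPM in CBL0137, with a log2 change of -0.10 ± 0.08 (edgeR adjusted p = 0.322). BMAL1, without which the loop stops, measured 9.41 and 8.75 CPM in DMSO and 8.14 and 7.25 CPM in CBL0137, with -0.24 ± 0.13 (edgeR adjusted p = 0.172). Its paralog BMAL2 measured 15.1 and 17.6 CPM in DMSO and 14.4 and 12.5 CPM in CBL0137, with -0.29 ± 0.11 (edgeR adjusted p = 0.04), below the fold limit. That adjusted p was above 0.05 in DESeq2 (0.229), in limma-trend on FPKM (0.744 and 0.745), with the replicate block (0.0645), with upper-quartile (0.0758) or library-size (0.0951) scaling, and without DMSO replicate 2 (0.338) or CBL0137 replicate 2 (0.286). For all 3 genes both treated libraries lay below both controls in CPM, where 66.9% of all genes tested did not overlap in either direction. In FPKM the conditions overlapped for all 3 genes, and the FPKM of CLOCK gave the opposite sign.

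NPAS2, the paralog of CLOCK, went the other way. It measured 20.8 and 21.3 CPM in DMSO and 28.6 and 27.2 CPM in CBL0137, with a log2 change of 0.41 ± 0.08 (edgeR adjusted p = 2.97e-04), an interval of 1.18 to 1.49 times the DMSO level, and so no call at the fold limit. NPAS2 made up 41.7% of the reads of NPAS2 and CLOCK in each DMSO library, and 50.3% and 50.4% in CBL0137 replicates 1 and 2. The Clopper-Pearson intervals were 38.8 to 44.6% in each control, and 47.5 to 53.2% and 47.6 to 53.2% in the treated libraries, and did not overlap between conditions. The authors' deposited FPKM of NPAS2 did not separate the conditions, at 3.84 and 3.97 in DMSO and 3.76 and 6.04 in CBL0137.

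**Figure D3:**
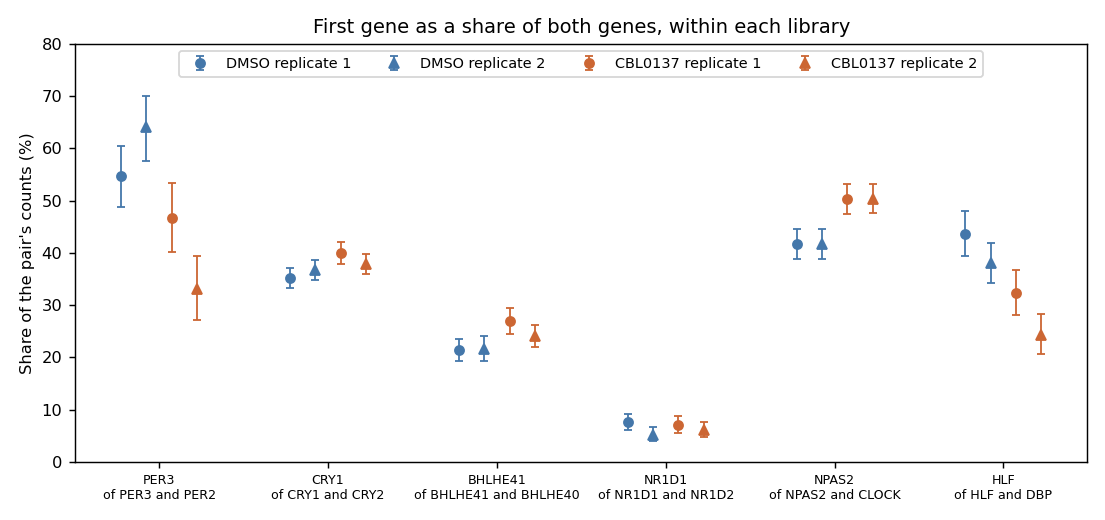
Share of the first-named gene in the reads of each pair, in percent, within each of the 4 libraries, with exact 95% binomial intervals that cover counting error only. The share of NPAS2 is near 42% in both controls and near 50% in both treated libraries, and that of PER3 against PER2 is lower in both treated libraries.

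The ROR receptors activate BMAL1 at the sites that REV-ERB receptors repress. Of the 2 genes tested, RORA fell and RORB was not called, beside 9.61% called among all genes tested. RORA measured 6.48 and 6.53 CPM in DMSO and 4.0 and 3.93 CPM in CBL0137, a change of -0.71 ± 0.17 on the log2 scale (edgeR adjusted p = 0.0015), and it was called in every setting that tested it except at a fold limit of 2. RORB measured 3.02 and 2.84 CPM in DMSO and 3.10 and 3.02 CPM in CBL0137 (0.06 ± 0.22, edgeR adjusted p = 0.859).

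Of the 3 other D-box factors, HLF fell and TEF and NFIL3 were not called, beside 9.61% called among all genes tested. HLF, a PAR bZIP activator like DBP, measured 9.80 and 10.7 CPM in DMSO and 7.24 and 5.22 CPM in CBL0137, with a log2 change of -0.73 ± 0.15 (edgeR adjusted p = 3.99e-04). As for PER3, CBL0137 replicate 2 was the lowest, and without it HLF dropped below the fold limit (-0.50, edgeR adjusted p = 0.0117; range over alternatives 4.2e-07 to 0.762). In limma-trend on the FPKM values the fall was not called (-0.09, adjusted p = 0.762). TEF, the third activator of that family, measured 18.9 and 19.3 CPM in DMSO and 19.8 and 22.5 CPM in CBL0137 (0.15 ± 0.09, edgeR adjusted p = 0.224). NFIL3, which represses at D-boxes, measured 12.4 and 13.7 CPM in DMSO and 12.8 and 13.2 CPM in CBL0137, with a log2 fold change of -0.01 ± 0.11 whose sign turned under several alternatives. HLF made up 43.7% and 38.0% of the reads of HLF and DBP in DMSO, and 32.3% and 24.3% in CBL0137. The intervals of DMSO replicate 2 (34.2 to 41.9%) and CBL0137 replicate 1 (28.1 to 36.8%) overlapped.

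**Figure D4:**
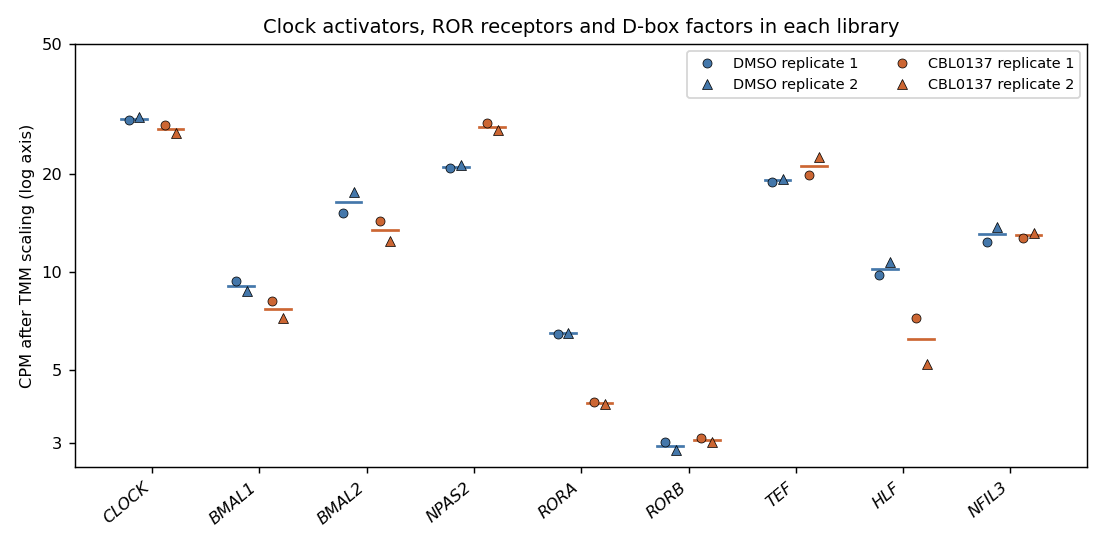
Expression of the E-box activators, ROR receptors and D-box factors in each library, as CPM after TMM scaling on a log axis, with circles for replicate 1, triangles for replicate 2 and bars for the mean of each condition. NPAS2, TEF and RORB lie higher in both CBL0137 libraries, CLOCK, BMAL1, BMAL2, RORA and HLF lie lower, and NFIL3 overlaps between conditions. Only RORA and HLF were called, and 66.9% of all genes tested do not overlap.

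Among 5 further repressors and partners of the loop, edgeR and DESeq2 called 0, beside 9.61% of all genes tested called in edgeR. At an edgeR adjusted p under 0.05, 0 were higher and 3 lower, beside 36.5% of all genes tested in either direction. At an unadjusted p under 0.05, 1 was higher and 3 lower, beside 44.8% of all genes tested. TIMELESS, which also protects replication forks, measured 150 and 153 CPM in DMSO and 122 and 120 CPM in CBL0137 (-0.32 ± 0.04, edgeR adjusted p = 1.51e-06). NONO, an RNA-binding partner of PER proteins, measured 720 and 706 CPM in DMSO and 587 and 582 CPM in CBL0137 (-0.29 ± 0.03, edgeR adjusted p = 7.38e-08). Of 12 kinases, phosphatases and enzymes that add or remove ubiquitin, listed as acting on PER and CRY, 11 were tested. Of these, edgeR and DESeq2 called 0, beside 9.61% of all genes tested called in edgeR. In edgeR 2 had an unadjusted p under 0.05, beside 44.8% of all genes tested. The one not tested, the pseudogene FBXL21P, had 0, 2, 6 and 9 reads. GSK3B (-0.29 ± 0.05) and CSNK2A1 (-0.24 ± 0.04), 2 kinases of clock proteins, were lower at an edgeR adjusted p of 6.81e-05 and 1.98e-05 and below the fold limit. In limma-trend on FPKM the adjusted p was 0.345 and 0.343 for GSK3B, and 0.636 in both fits for CSNK2A1. The FPKM of CSNK2A1 overlapped between conditions, at 21.9 and 21.3 in DMSO and 21.9 and 19.8 in CBL0137.

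Of 8 genes that clocks are known to drive as outputs, 2 rose, 0 fell and 6 were not called. Over all genes tested, 6.88% were called higher and 2.73% lower. KLF10, a zinc finger factor that TGF-beta also induces, measured 26.6 and 27.3 CPM in DMSO and 40.4 and 43.8 CPM in CBL0137, with a log2 change of 0.65 ± 0.07 (edgeR adjusted p = 7.23e-08); without CBL0137 replicate 2 it was 0.58, just under the fold limit, and not called. CDKN1A, the cell cycle inhibitor p21, measured 53.0 and 50.6 CPM in DMSO and 86.7 and 91.6 CPM in CBL0137 (0.78 ± 0.05, edgeR adjusted p = 1.99e-11). TSC22D3, which glucocorticoids also induce, measured 14.3 and 13.7 CPM in DMSO and 20.9 CPM in both CBL0137 libraries (0.58 ± 0.10, edgeR adjusted p = 2.74e-05), just under the fold limit. It was called higher with upper-quartile (0.63) and library-size (0.64) scaling, a filter of 1 CPM (0.59), limma-trend on FPKM (0.77 and 0.92), a fold limit of 1.2 and without DMSO replicate 1 (0.60). WEE1, a kinase that restrains mitosis, measured 58.4 and 57.5 CPM in DMSO and 50.7 and 47.4 CPM in CBL0137 (-0.24 ± 0.06, edgeR adjusted p = 0.00216). Over these outputs and the other clock genes together, 33 were tested, 2 rose, 2 fell and 29 were not called, with a median log2 fold change of -0.04, beside 9.61% called among all genes tested.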

How the data were processed

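Per the series' description and the submitters' processing notes, the authors used Trim Galore for adapters, HISAT2 for alignment (hg19) and HTSeq 0.11.1 to obtain the deposited counts per gene, and the notes also name DESeq2 1.26.0 and, with no role given, the mouse build mm10. The deposited FPKM values, per the labels scaled by gene length and depth, were made with software the sources used here do not name, and 4663 genes with 0 counts in all libraries have an FPKM above 0. The 5 HTSeq summary rows held 23.7% to 24.8% of reads per library and stayed out, as did 1 leftover header row.

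Symbols and GRCh37 (hg19) positions came from GENCODE release 44 lifted to GRCh37, which named 58524 of 60617 IDs; older symbols were matched through RefSeq. The main test was edgeR 4.0.16 (R 4.3.3) quasi-likelihood on counts, with TMM factors and filterByExpr (minimum count 10). The standard error is the log2 fold change over the root of F, and intervals use the t distribution. Tables used Python 3.11.15, pandas 2.3.3 and scipy 1.17.1. Alternatives used DESeq2 1.42.0 and limma 3.58.1. The test was also tried on counts simulated with means and spread taken from these data. It called 87 of 100 genes with a true fold of 2 in either direction, 79 of 100 at 1.6 and 0 of 16729 unchanged genes.

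Groups came from sample titles. The text names all members and E-box activators and, of each other clock list, every called gene and up to 2 uncalled genes with the smallest adjusted p. The members and lists were chosen with earlier results of these data known. One listed gene is not reported here.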

Additional observations from a re-analysis of the deposited data

How the results depend on the processing

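The fall of PER3 was called in every setting that tested it except without CBL0137 replicate 2 and at a fold limit of 2, and its FPKM was below the filter used for FPKM. The count of called members was 1 under RLE, upper-quartile and library-size factors, other count filters, DESeq2, limma-voom and the replicate block. It was 0 in limma-trend on log2(FPKM + 1) and log2(FPKM + 0.1), where 7 members were tested and 2 had an unadjusted p under 0.05, 2 at a fold limit of 1.2, 0 at a fold limit of 2, and 0 to 2 with a library left out. Of the other clock genes and outputs, 4 were called, against 10 at a fold limit of 1.2, 0 at a fold limit of 2 and 2 to 5 with a library left out. Over all genes, 1663 calls became 923 in DESeq2, 577 and 726 in limma-trend on FPKM with pseudocounts of 1 and 0.1, 4230 at a fold limit of 1.2 and 736 at a fold limit of 2.

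Same-numbered libraries did not deviate together across genes (correlation of deviations -1.3e-04). With 2 libraries per condition this cannot show whether they shared a culture or a day, which the labels do not state. With the replicate block, 1576 genes were called, 1572 of them among the 1663, and PER3 stood at -0.71. Signs turned, without a call, in limma-trend on FPKM with pseudocounts of 1 and 0.1 for PER1 (0.12 and 0.13), NR1D2 (0.37 and 0.45), CLOCK (0.081 and 0.12) and NFIL3 (0.066 and 0.080). With factors from the upper quartile or from library size only, they turned for NR1D2 (0.015 and 0.029) and NFIL3 (0.039 and 0.053), as they did with no count filter for NR1D1 (-0.00084) and with a filter of 1 CPM for NFIL3 (0.0031). With a library left out, the log2 fold change ran from -0.15 to 0.00092 for CRY2, -0.016 to 0.12 for BHLHE40, -0.21 to 0.25 for NR1D1, -0.094 to 0.017 for NR1D2, -0.16 to 0.30 for DBP and -0.087 to 0.058 for NFIL3. The cause was not tested. These fits take the spread from the group that keeps both libraries. Depth limits NR1D1, PER2 and PER3, at 61 to 164 reads per library.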
